A study of Mus musculus with 4 samples.

Results

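The Bcl2 family decides whether a cell keeps or loses the integrity of its mitochondria, and 10 of its genes were followed here through the stem and progenitor cells of mouse bone marrow. Members were chosen by name as Bcl2, Mcl1, Bcl2l1, Bcl2l11, Bax, Bak1, Bbc3, Pmaip1, Bid and Bad, and each symbol matched 1 of the 27998 genes in the deposited matrices. The cells were sorted as LSK cells, which carry Sca1 and cKit but no markers of mature lineages and hold the blood stem cells and multipotent progenitors. The 4 libraries came from control mice (2) and Nup358 knockout mice (2). Both genotypes received tamoxifen. The deposited labels call the controls wild-type. By the study's description all mice carried Nup358 fl/fl, alleles in which an exon can be cut out. The excised exon is exon 2, and the mice were 9 to 12 weeks old. Knockout mice also carried R26-CreERT2, a Cre recombinase that is expressed in all tissues and becomes active with tamoxifen, so that Nup358 was removed from the whole animal a few days before analysis and not from blood cells alone. Each library pooled 3 mice, and p-values of the genotype comparisons therefore measure the spread between pools. Where classes are compared within libraries, p-values measure how much those differences vary from library to library.

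Proteins of this family work by binding each other. Bcl2, Mcl1 and Bcl2l1 (Bcl-xL) are survival proteins that hold the effectors Bax and Bak1 in check. Freed effectors form pores in the outer membrane of mitochondria, which releases cytochrome c and starts the caspases. The BH3-only members Bcl2l11 (Bim), Bbc3 (Puma), Pmaip1 (Noxa), Bid and Bad occupy the survival proteins or act on the effectors directly. Blood stem cells are known to depend on Mcl1, a protein that is made and destroyed quickly. Noxa binds Mcl1 in preference to Bcl2, and Puma, Noxa and Bax are well-known targets of p53.

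The 3 members with the highest RNA in LSK cells are given here with the 250 bases before their start sites, because Mcl1, Bcl2 and Bax held most of the family's RNA and several of the comparisons turn on them. Sequences are from RefSeq on GRCm38.p6 and read 5′ to 3′ toward the gene. Capitals mark the letters TGACG or CGTCA of the CRE core, CACGTG of the E-box, and a single p53 decamer, where a whole p53 element is a pair of them. TGACG is likewise a part of the full CRE.
Mcl1, chr3:95658471-95658720, plus strand: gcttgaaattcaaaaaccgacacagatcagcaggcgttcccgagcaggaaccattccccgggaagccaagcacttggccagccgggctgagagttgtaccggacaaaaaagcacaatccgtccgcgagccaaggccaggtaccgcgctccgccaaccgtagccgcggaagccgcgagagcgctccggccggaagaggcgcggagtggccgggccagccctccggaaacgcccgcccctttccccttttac
Bcl2, chr1:106714291-106714540, minus strand: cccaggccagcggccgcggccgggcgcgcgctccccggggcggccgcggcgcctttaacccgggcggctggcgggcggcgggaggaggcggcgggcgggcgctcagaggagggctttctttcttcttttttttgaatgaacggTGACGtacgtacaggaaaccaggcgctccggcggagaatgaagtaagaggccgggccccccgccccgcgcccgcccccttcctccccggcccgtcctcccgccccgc
Bax, chr7:45466899-45467148, minus strand: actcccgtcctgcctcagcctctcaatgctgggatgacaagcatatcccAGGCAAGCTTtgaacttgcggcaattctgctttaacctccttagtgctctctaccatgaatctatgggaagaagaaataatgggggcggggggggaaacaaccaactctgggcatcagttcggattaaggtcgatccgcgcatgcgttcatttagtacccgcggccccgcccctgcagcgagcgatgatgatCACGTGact
The Mcl1 window held none of these letters, Bcl2 held 1 CRE core and Bax held 1 E-box and 1 p53 decamer. Of all 32851 such windows, 17.8% held a CRE core, 6.0% an E-box and 7.1% a p53 decamer on either strand. Start sites of 9 of the 10 members were in the table, and among them Bcl2 and Bbc3 held the CRE core, Bax and Bbc3 the E-box and Bax alone the p53 decamer. These matches describe letters in a window and no binding was measured. On GRCm38, Mcl1 itself lies at chr3:95658788-95663176 on the plus strand, and Bcl2 at chr1:106538178-106714274 and Bax at chr7:45461697-45466898 on the minus strand.

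Of 25242 deposited barcodes, 10936 had a sequence that another library held with 3 or more times the UMIs, and they were left out and are called copies, although how they arose was not established. This took 81.8% of the barcodes of control library 2 and 65.3% of those of knockout library 1 against 14.8% and 18.8% in control library 1 and knockout library 2. In all 14041 cells were kept, 7830 and 1200 of them control and 1589 and 3422 knockout, and 6680 barcode sequences occurred in more than 1 of the 4 libraries. Median depth was 6251 UMIs per cell in control library 1 and 13176, 17707 and 14399 in control library 2 and knockout libraries 1 and 2. Cells were sorted into 10 classes by lists of marker genes that contain no member, and 7607 cells passed no gate and are called unassigned. Among the leading genes were Procr in stem-like, Elane in neutrophil-like, Pf4 in megakaryocyte-like and Dntt in lymphoid-primed-like cells. These are markers of the gates themselves, so their lead cannot check the names of the classes. Leading genes outside the lists included Hacd4 in stem-like, Camp in neutrophil-like, Slc14a1 in megakaryocyte-like and Arpp21 in lymphoid-primed-like cells. B-lineage-like cells, which the sort should have removed, numbered 8 and 6 in control and 105 and 302 in knockout libraries. Kit stood between 73.3 and 103 CPM and Ly6a, the gene of Sca1, between 133 and 317, and neither was called different. Ranbp2, the gene of Nup358, stood at 127 and 101 CPM (counts per gene scaled to the same total of UMIs in each library or class) in control and 124 and 126 in knockout libraries, and counts at the 3′ end do not read the deleted exon. In the same way they do not separate the long and short forms of Bcl2l1.

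LSK cells as a whole held most RNA of Mcl1 and Bax. Over the 4 libraries, Mcl1 averaged 197 ± 28.6 CPM (SD, n = 4) and Bax 168 ± 33.8. Ranges were 167 to 229.7 for Mcl1 and 124 to 207 for Bax, so their order is within the spread. Bcl2 followed with 83.7 ± 13.9, Bak1 with 67.6 ± 10.9 and Bad with 58.0 ± 6.95 CPM. Bcl2l11 and Bid averaged 26.3 ± 4.60 and 24.9 ± 3.48. Bbc3, Bcl2l1 and Pmaip1 were scarce at 12.3 ± 2.84, 11.8 ± 1.92 and 4.92 ± 2.10 CPM. Each transcript gives its UMIs at the 3′ end, so these levels were not divided by gene length.

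The levels of most members depended on the kind of progenitor. Each class was compared with unassigned cells of the same libraries by edgeR's quasi-likelihood test with library as a block and Benjamini-Hochberg adjustment over all genes at 0.05. Of 90 tests of a member in 9 classes, 37 were past the threshold, 19 with the member higher in the class and 18 lower, while 18.2% of all genes tested were called over the same classes, 9.32% higher and 8.89% lower. In 34 of the 37, every library tested went the way of the fit. Past the threshold under every other setting were 23 of the 37, without each library in turn 24, and under both 19. The p-values rest on 2 to 4 libraries a class, with B-lineage-like cells measured only in knockout libraries and basophil- and mast-like cells in 1 library of each genotype.

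**Figure D1:**
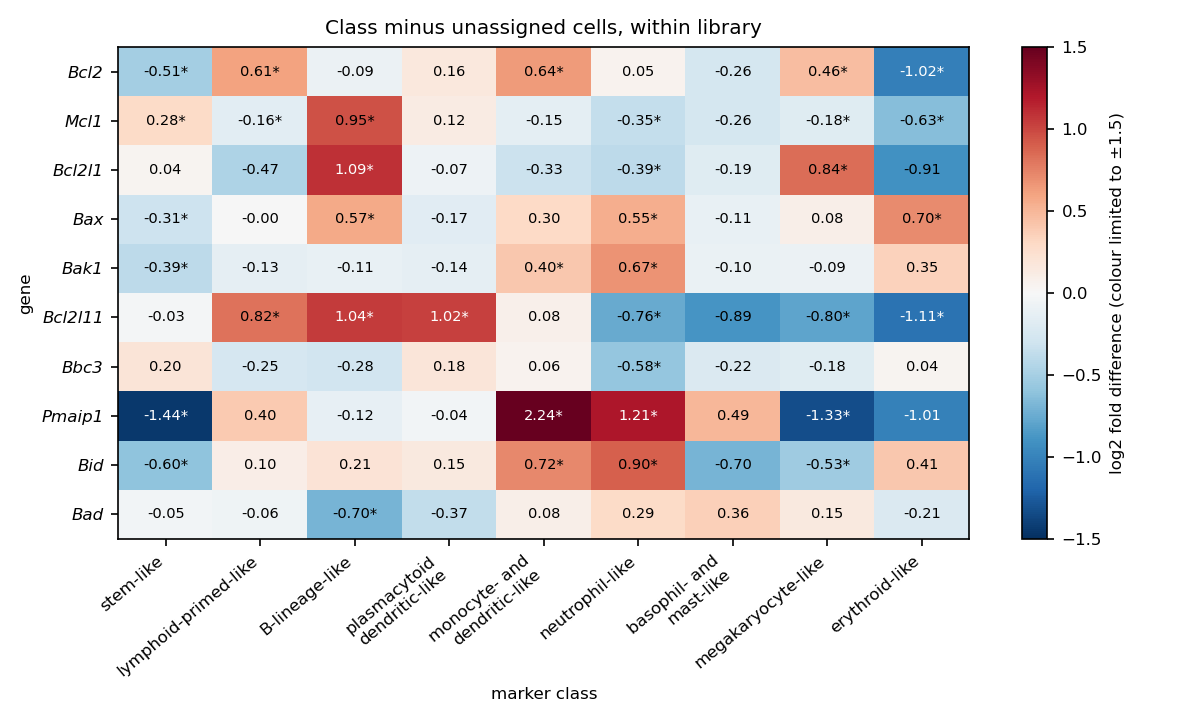
Difference of each member between a marker class and unassigned cells of the same libraries, as log2 fold in numbers and colour (red, higher in the class), with genes in rows and classes in columns and an asterisk where the adjusted p of edgeR is below 0.05. Bcl2 was higher in lymphoid-primed-like (0.61) and lower in erythroid-like cells (-1.02), Bax was the reverse in erythroid-like cells (0.70), and Pmaip1 was highest in monocyte- and dendritic-like cells (2.24); B-lineage-like values come from knockout libraries only.

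Among classes with at least 20 cells in 2 or more libraries, Bcl2 RNA was highest in lymphoid-primed-like, monocyte- and dendritic-like and megakaryocyte-like cells, with means of 127, 123 and 118 CPM whose ranges over libraries overlapped. The few T- and NK-like cells, 13 control and 27 knockout, held 193 and 277 CPM on 15 and 42 UMIs. Stem-like cells averaged 62.3 ± 10.7 and erythroid-like cells 41.2 ± 6.75 (n = 3), and the ranges of these last neighbours lay apart. Lymphoid-primed-like cells held 158 and 118 CPM in control and 123 and 109 in knockout libraries, where unassigned cells held 109.9 and 83.1 against 68.6 and 72.7. The log2 difference was 0.61 (SE 0.06, adjusted p = 1.17e-07, higher in 4 of 4 libraries). Differences were 0.46 (SE 0.07) in megakaryocyte-like and 0.64 (SE 0.13) in monocyte- and dendritic-like cells, -0.51 (SE 0.07) in stem-like and -1.02 (SE 0.16) in erythroid-like cells. In monocyte- and dendritic-like cells, knockout library 2 went the other way with 67.8 against 72.7 CPM. Without control library 1 the same difference was 0.56 with an adjusted p of 0.0952.

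RNA of Mcl1, on whose protein stem cells are known to depend, was higher in stem-like cells than in unassigned cells of all 4 libraries. Stem-like cells held 337 and 374 CPM in control and 199 and 211 in knockout libraries, and unassigned cells 257 and 244 against 160.1 and 179. The log2 difference was 0.28 (SE 0.06, adjusted p = 0.00187). B-lineage-like cells were higher still by 0.95 (SE 0.18), but their 2 libraries differed, with 446 and 233 CPM. Erythroid-like cells held 140.0, 134 and 132 CPM and were lower by a log2 difference of -0.63 (SE 0.12), and neutrophil-like cells by -0.35 (SE 0.09). Without control library 1 the neutrophil-like difference was -0.34 with an adjusted p of 0.0780. Small differences of -0.16 and -0.18 in lymphoid-primed-like and megakaryocyte-like cells were past the threshold, and each lost it when any of 3 libraries was left out, with values from -0.10 to -0.18 and adjusted p from 0.0900 to 0.286.

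Bcl2l1, whose protein is known to set the life span of platelets, was higher in megakaryocyte-like cells. They held 29.1 and 22.2 CPM in control and 19.2 and 21.6 in knockout libraries, and unassigned cells 12.97 and 10.4 against 12.2 and 13.6. Megakaryocyte-like cells were above unassigned cells in every library, by a log2 difference of 0.84 (SE 0.16, adjusted p = 2.90e-04). B-lineage-like cells were higher by 1.09 (SE 0.30), with 16.4 and 34.4 CPM. The level in neutrophil-like cells was lower by -0.39 (SE 0.12, adjusted p = 0.0266), a call that was lost without each of the 4 libraries in turn, at differences from -0.37 to -0.45 and adjusted p from 0.0517 to 0.132.

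Both effectors were higher in neutrophil-like and lower in stem-like cells. In neutrophil-like cells Bax stood at 207 and 161 CPM in control and 190.4 and 245 in knockout libraries, and Bak1 at 87.7 and 73.6 against 94.8 and 100.4. Unassigned cells held less in every library, with 145 and 114 against 165 and 198 for Bax and 59.0 and 48.1 against 67.7 and 78.7 for Bak1. The log2 differences were 0.55 (SE 0.09) for Bax and 0.67 (SE 0.08) for Bak1. Stem-like cells were lower in every library by -0.31 (SE 0.06) for Bax and -0.39 (SE 0.08) for Bak1. Bax was also higher in erythroid-like cells by 0.70 (SE 0.12), where Bak1 differed by 0.35 without passing the test (adjusted p = 0.104), and in B-lineage-like cells by 0.57 (SE 0.18). Bak1 was higher in monocyte- and dendritic-like cells by 0.40 (SE 0.13, adjusted p = 0.0490), which fell to 0.29 without control library 1 (adjusted p = 0.513) or without control library 2 (adjusted p = 0.205).

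Among the BH3-only members, Bcl2l11 followed the lymphoid side. Bim, its protein, is the known killer of surplus lymphocytes. Lymphoid-primed-like cells held 58.3 and 72.2 CPM in control and 30.1 and 36.5 in knockout libraries, above unassigned cells of each library, which held 33.5 and 32.6 against 19.7 and 23.6. The log2 difference was 0.82 (SE 0.09, adjusted p = 5.77e-07), and B-lineage-like and plasmacytoid dendritic-like cells were higher by 1.04 (SE 0.25) and 1.02 (SE 0.20). The plasmacytoid dendritic-like difference was 0.56 with an adjusted p of 0.755 without knockout library 2. Bcl2l11 was lower by -0.76 (SE 0.14) in neutrophil-like, by -0.80 (SE 0.16) in megakaryocyte-like and by -1.11 (SE 0.35) in erythroid-like cells. Megakaryocyte-like cells without control library 1 gave -0.55 (adjusted p = 0.0567), and erythroid-like cells gave -0.60 (adjusted p = 0.128) without knockout library 2 and -3.10 without control library 1, whose level of 26.2 CPM stood above 5.48 in control library 2.

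Pmaip1 and Bid were higher in monocyte- and dendritic-like and in neutrophil-like cells and lower in stem-like and megakaryocyte-like cells. Of 456 monocyte- and dendritic-like cells, 208 passed 2 or more gates, as did 680 of 2386 neutrophil-like cells. Neutrophil-like markers summed to 4734 CPM in monocyte- and dendritic-like cells against 3729 in all other cells, so the classes were not cleanly separate. Pmaip1 stood at 8.96 and 15.7 CPM in monocyte- and dendritic-like cells of control and at 24.6 and 24.4 of knockout libraries, against 1.73 and 2.39 and 6.16 and 7.02 in unassigned cells, a log2 difference of 2.24 (SE 0.27, adjusted p = 1.79e-06). Neutrophil-like cells were higher by 1.21 (SE 0.18). Stem-like cells held 0.397 and 0.451 CPM in control and 3.85 and 2.25 in knockout libraries. They were below unassigned cells of every library by a log2 difference of -1.44 (SE 0.26). These stem-like levels rest on 1 UMI in each control and 12 UMIs in each knockout library. In megakaryocyte-like cells the difference was -1.33 (SE 0.45, adjusted p = 0.0338) on 10 UMIs in all, and it lost the threshold without either knockout library at -1.11 and -0.96 (adjusted p = 0.160 and 0.410).

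Bid, whose protein caspase 8 cuts to carry the death receptor signal to mitochondria, was higher by 0.90 (SE 0.11) in neutrophil-like cells. Its level there was 33.7, 45.1, 29.8 and 36.8 CPM in control libraries 1 and 2 and knockout libraries 1 and 2. Unassigned cells held 18.8, 25.1, 23.3 and 21.3. Monocyte- and dendritic-like cells were higher by 0.72 (SE 0.15), and stem-like cells lower by -0.60 (SE 0.11) and megakaryocyte-like cells by -0.53 (SE 0.18). Without control library 1 the monocyte- and dendritic-like difference was 0.59 (adjusted p = 0.162) and the megakaryocyte-like one -0.34 (adjusted p = 0.301), and the latter was -0.64 (adjusted p = 0.0667) without knockout library 2. Bbc3 was lower in neutrophil-like cells by -0.58 (SE 0.18, adjusted p = 0.0302), in 3 of 4 libraries, and the difference was -0.28 (adjusted p = 0.364) without control library 1. Bad was called in B-lineage-like cells only, where it was lower by -0.70 (SE 0.23), and its class means elsewhere lay between 45.8 and 78.8 CPM.

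By class, stem-like cells had 1 member higher and 5 lower, against 15.2% and 17.5% of all genes tested there (32.6% in all). Neutrophil-like cells had 4 higher and 4 lower, against 21.1% and 18.5% (39.5% in all), and monocyte- and dendritic-like cells 4 higher and 0 lower, against 5.17% and 4.22% (9.39% in all). B-lineage-like cells had 4 higher and 1 lower, against 9.05% and 8.19%. Of these 5 B-lineage-like calls DESeq2 made 1, that of Mcl1. Megakaryocyte-like cells had 2 and 4 (9.30% and 10.9%, 20.2% in all), erythroid-like cells 1 and 3 (11.2% and 12.3%), lymphoid-primed-like cells 2 and 1 (7.18% and 7.34%) and plasmacytoid dendritic-like cells 1 and 0 (3.48% and 0.760%, 4.24% in all). In basophil- and mast-like cells 0 members were called by edgeR, with 2.67% of all genes called, 2.07% higher and 0.597% lower. The unadjusted p was under 0.05 for 1 member there, with no share of all genes to set beside it, and DESeq2 called 0.

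Genes of the cell cycle and of the immediate early response also differed between classes. The 14 G2/M genes were all lower in stem-like and all higher in megakaryocyte-like cells than in unassigned cells, and 8 of them were higher and 0 lower in neutrophil-like cells. The 12 immediate early genes, which respond within minutes to stimulation and to handling, were higher for 11 and lower for 0 in stem-like cells and lower for 12 in neutrophil-like cells. Mcl1 went the way of the immediate early genes in both classes, and Bax and Bak1 went the way of the G2/M genes there. In megakaryocyte-like cells, Bax and Bak1 gave 0.08 and -0.09 and did not pass the test (adjusted p = 0.479 and 0.595). The part of either in the members' differences was not tested.

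Across classes, the profile of a member was compared with that of 6006 genes with at least 20 CPM, over 10 classes, unassigned cells included, as log2 of the level with 5 added, centred in each library and averaged over libraries. Most like Bak1 were Rps27l (Pearson r = 0.98), Cycs (0.97) and Cox7b (0.97), and most like Mcl1 were Ltb, Tbc1d1 and Klf2 (r from 0.96 to 0.97). Dhrs3, Map4k1 and Cab39 were most like Bcl2 (0.90 to 0.93), Lsp1, Med13l and Wasf2 most like Bcl2l11 (0.94 to 0.95), and Psmd12, Sf3b4 and Sap18 most like Bax (0.93 to 0.95). For Bid they were Pdcd2l, Srprb and Exosc9 (0.93 to 0.94), and for Bad Aamp, Bnip2 and Zmat5 (0.96). Among the members themselves, Bak1 and Bid were most alike (r = 0.78), followed by Mcl1 and Bcl2l11 (0.69), and Mcl1 and Bak1 were most opposed (-0.70). These values describe 10 class means that share libraries. Bcl2l1, Bbc3 and Pmaip1 were below the limit of level.

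Over all LSK cells, Pmaip1 was the single member called different between the genotypes. It rose from 2.96 and 3.24 CPM in control to 6.81 and 6.67 in knockout libraries, and the groups did not overlap. The log2 fold change was 1.09 (SE 0.20, adjusted p = 0.0396, edgeR), 1 of 10 members called, where 3.44% of all 13779 genes tested were called, 1.37% higher and 2.07% lower. The call was kept without either control library (adjusted p = 0.0165 and 0.00599) and lost without either knockout library. Without knockout library 1 the fold change was 1.08 with an adjusted p of 0.116, without knockout library 2 it was 1.10 with 0.163, and with copied barcodes kept it was 0.93 with 0.0516.

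The survival genes Mcl1 and Bcl2 were lower in both knockout libraries without passing the test. Mcl1 stood at 212 and 229.7 CPM in control and 167 and 181 in knockout libraries (log2 fold change -0.39, SE 0.15, adjusted p = 0.203). Bcl2 stood at 104 and 83.1 against 74.1 and 74.0 (-0.37, SE 0.15, adjusted p = 0.214). Without each library in turn, the change ranged from -0.47 to -0.30 for Mcl1 and from -0.50 to -0.23 for Bcl2. Bcl2l1 stood at 11.4 and 9.60 against 12.2 and 14.2 (0.29, SE 0.17).

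Bax and Bak1 overlapped between the genotypes over all cells, with log2 fold changes of 0.29 (SE 0.20) and 0.20 (SE 0.18). Among BH3-only members, Bcl2l11 stood at 27.5 and 31.1 CPM in control and 20.1 and 26.4 in knockout libraries (-0.37, SE 0.18), and Bid at 25.4 and 29.3 against 23.7 and 21.0 (-0.33, SE 0.16). Bbc3 and Bad overlapped, at -0.33 (SE 0.24) and -0.23 (SE 0.16). Without control library 1 Bbc3 gave -0.63, and without control library 2 it gave 0.02. In all, the groups did not overlap for 6 of 10 members, and this was so for 54.4% of all genes.

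**Figure D2:**
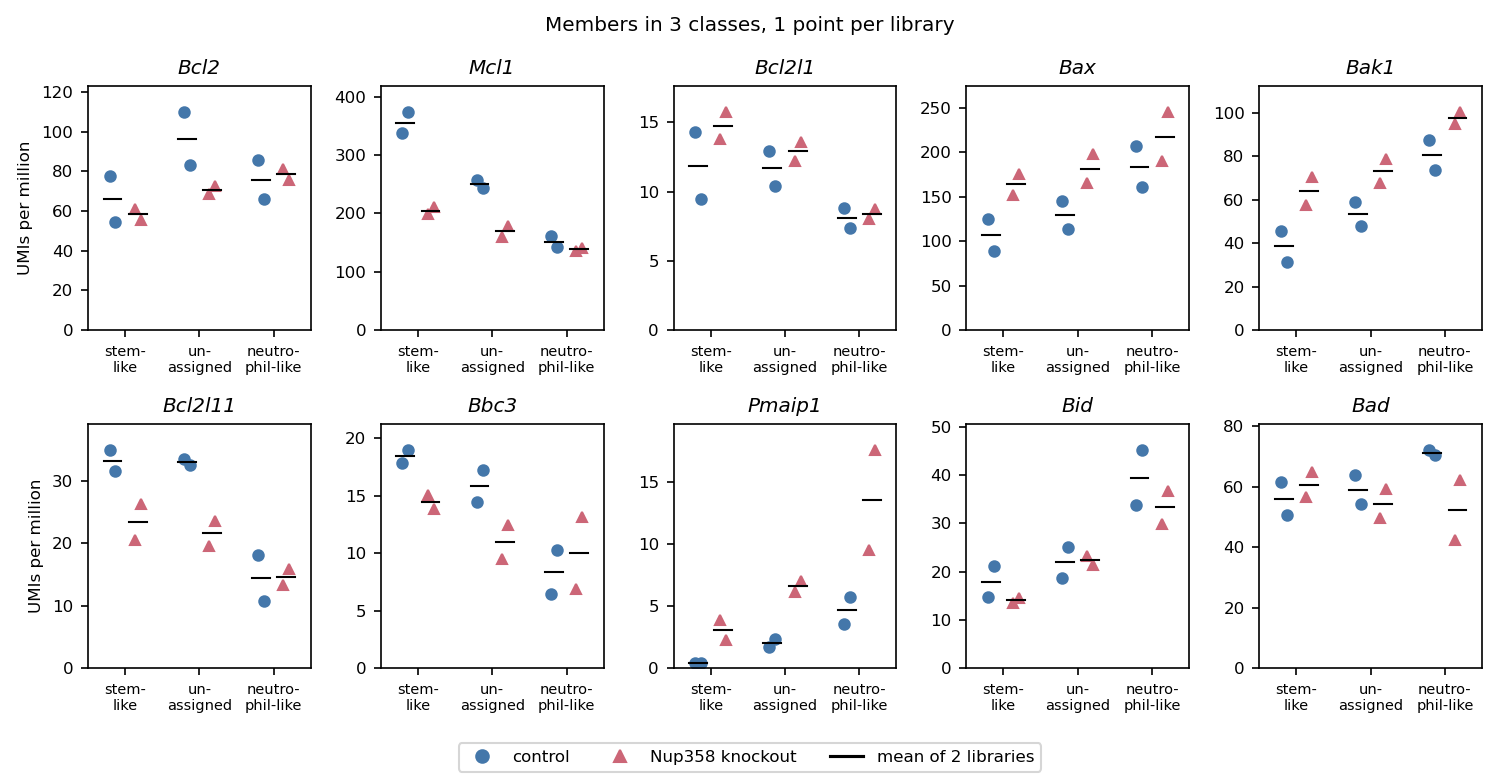
Level of each member in stem-like, unassigned and neutrophil-like cells, in CPM, with 1 point per library (circles, control; triangles, Nup358 knockout) and a line at the mean of 2 libraries. Mcl1 in stem-like cells (337 and 374 against 199 and 211) and Pmaip1 in unassigned cells (1.73 and 2.39 against 6.16 and 7.02) are the differences past the threshold.

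The genotypes were then compared within a class, so that the shares of the classes do not enter. A change in the kinds of cells inside a class can still enter, for instance among the 7607 unassigned cells, which passed no gate. In 6 classes with at least 20 cells in every library, 2 of 57 tests of a member were past the threshold (1 higher, 1 lower), against 3.26% of all genes tested in the same classes, 1.09% higher and 2.17% lower. At an unadjusted p under 0.05 there were 23. The share of all genes at that cut is not given beside it, so nothing about the members is drawn from this count. By class, 0 members were called in neutrophil-like, monocyte- and dendritic-like, megakaryocyte-like and lymphoid-primed-like cells by edgeR, where 1.38%, 0.774%, 0.744% and 0.769% of all genes were called. An unadjusted p under 0.05 was found there for 2, 2, 4 and 4 members, again without the share of all genes, and DESeq2 called 0 in each.

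Mcl1 fell in stem-like cells. Its level was 337 and 374 CPM in control and 199 and 211 in knockout libraries, with a wide gap between the groups, and the log2 fold change was -0.82 (SE 0.18, adjusted p = 0.0339), 1 of 9 members tested there with 4.02% of all genes called, 1.27% higher and 2.75% lower. Without knockout library 1 it was -0.76 with an adjusted p of 0.309, without knockout library 2 -0.85 with 0.467, and with 1 more marker required of a stem-like cell -0.92 with 0.0769. The fitted change of Mcl1 was negative in 6 of 6 classes, which share their libraries, and ranged from -0.82 to -0.10. With copied barcodes kept, it was negative in 9 of 10 classes. In unassigned cells it was -0.53 (SE 0.14, adjusted p = 0.0538), and the difference between stem-like and unassigned cells in this change, -0.23 (SE 0.09), did not pass (adjusted p = 0.406). Without each library in turn, the change of Mcl1 in unassigned cells ranged from -0.63 to -0.44.

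Immediate early genes were lower beside Mcl1 in knockout stem-like and unassigned cells. In stem-like cells their summed level was 7014 and 7673 CPM in control and 1881 and 1953 in knockout libraries, and 12 of 12 fell in the knockout, by a median of -1.87 on the log2 scale. In unassigned cells 12 of 12 were lower too, from 4659 and 4617 to 1386 and 1641 CPM, and over all cells 7 of 12. The part of the immediate early response in the change of Mcl1 was not tested. Median depth of stem-like cells was 3911 and 9673 UMIs in control and 14066 and 10809 in knockout libraries.

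Pmaip1 rose in unassigned cells, from 1.73 and 2.39 CPM in control to 6.16 and 7.02 in knockout libraries. The log2 fold change was 1.79 (SE 0.26, adjusted p = 0.00937), 1 of 10 members tested there with 9.25% of all genes called, 3.45% higher and 5.80% lower, and it stayed past the threshold without each library in turn (adjusted p from 9.75e-05 to 0.00638). Counts were 59 UMIs in 4621 control cells and 376 UMIs in 2986 knockout cells. The other classes in which it was tested had fitted changes of 1.57 (SE 0.41) in neutrophil-like, 1.20 (SE 0.50) in lymphoid-primed-like and 1.09 (SE 0.45) in monocyte- and dendritic-like cells, with adjusted p of 0.118, 0.260 and 0.417. In stem-like cells the gene was under the filter on low counts with 2 UMIs in control and 24 in knockout libraries, a ratio of 6.72 per UMI of the class with an exact 95% interval of 1.67 to 58.7 that covers counting error of these libraries only.

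Plasma cell genes were also higher in unassigned cells of both knockout libraries. Their summed level in unassigned cells was 126 and 152 CPM in control and 707 and 398 in knockout libraries. Jchain led with 70.9 and 82.0 against 554 and 326. In lymphoid-primed-like cells, where Pmaip1 had a fitted change of 1.20, the sum was 65.5 and 81.2 against 62.5 and 53.1 CPM. In neutrophil-like cells, where the change of Pmaip1 was 1.57, the sum was higher in both knockout libraries, at 111 and 103 against 224 and 300. Monocyte- and dendritic-like cells, with a change of 1.09, held 61.1 and 70.6 against 65.7 and 122. The part of plasma cell RNA in the change of Pmaip1 was not tested. Of 7607 unassigned cells, 83 held 10 or more UMIs of Jchain. When cells rich in Jchain and the B-lineage-like, T- and NK-like and plasmacytoid dendritic-like classes were left out, a choice made after the data were seen, the log2 fold change of Pmaip1 in unassigned cells was 1.84 (adjusted p = 0.00902) and over all cells 1.121 (adjusted p = 0.0358).

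Of other targets of p53, some were called. Their summed level overlapped between the genotypes in unassigned cells, at 246 and 238 CPM in control and 238 and 271 in knockout libraries. In stem-like cells it did too, at 256 and 244 against 241 and 266. It also overlapped in monocyte- and dendritic-like, megakaryocyte-like and lymphoid-primed-like cells. Over all cells the sum was higher in both knockout libraries, at 224 and 218 against 237 and 279 CPM. The same was so in neutrophil-like cells, at 193 and 168 against 216 and 278. The median log2 fold change of the list was 0.43 in unassigned, 0.25 in stem-like and 0.33 in all cells. For all genes tested it was -0.0045, -0.015 and -0.0080. Cdkn1a, the gene of the cell cycle inhibitor p21, stood at 81.8 and 78.4 CPM in control stem-like cells. In knockout stem-like cells it stood at 46.8 and 62.2 and was not called. Neutrophil-like cells held 47.7 and 52.1 against 51.2 and 79.0 CPM of it. By edgeR, its change there exceeded that in unassigned cells by 0.85 (SE 0.13, adjusted p = 2.21e-04). Phlda3 passed the same test (1.18, SE 0.32), so that 2 of 11 listed genes tested were called higher and 0 lower. Of all genes, 2.11% and 4.61% were. Of 12 listed, 2 were called higher and 0 lower over all cells, Phlda3 with 4.54 and 3.98 against 11.8 and 16.2 CPM (log2 fold change 1.67, SE 0.22) and Zmat3 with 4.61 and 4.96 in the knockout (1.15, SE 0.22). In unassigned cells Aen and Ccng1 were called too, at 0.67 (SE 0.15) and 0.64 (SE 0.15). There 4 of 12 were called higher and 0 lower, where 3.45% and 5.80% of all genes were. Phlda3 was also called in neutrophil-like cells (2.52, SE 0.33). Bbc3, which is also a p53 target, was lower in unassigned cells of both knockout libraries, at 14.5 and 17.2 against 9.48 and 12.4 CPM, without passing the test (-0.48, SE 0.20, adjusted p = 0.157). Without each library in turn, this change of Bbc3 ranged from -0.72 to -0.30.

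**Figure D3:**
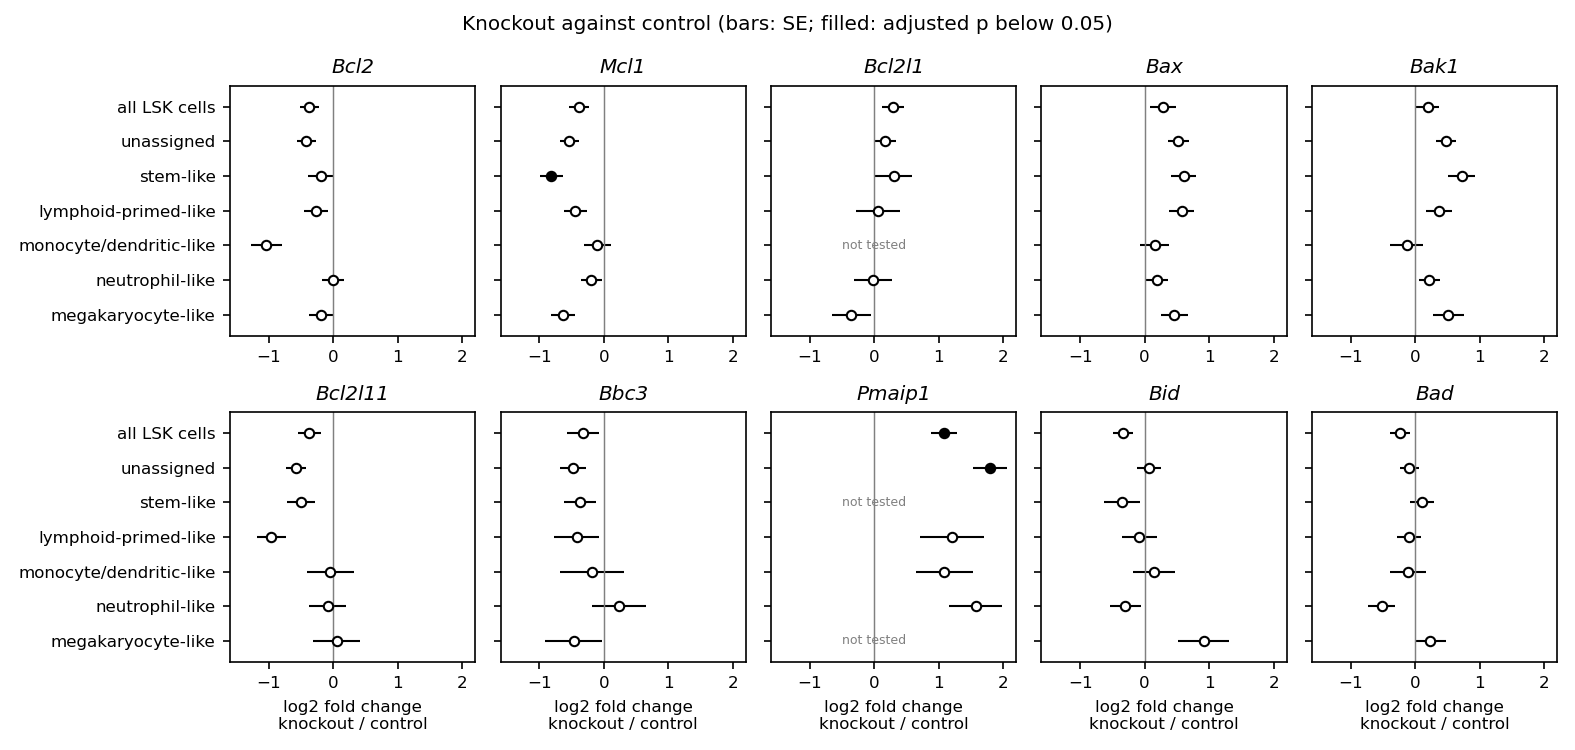
Log2 fold change of each member in knockout against control, over all LSK cells and within 6 classes, with bars for the SE and filled points where the adjusted p of edgeR is below 0.05. The filled points are Pmaip1 over all cells (1.09) and in unassigned cells (1.79) and Mcl1 in stem-like cells (-0.82), and Bax lies to the right of 0 in every class.

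Both effectors were higher in knockout stem-like cells by values close to, but not past, the threshold. Bax stood at 125 and 88.8 CPM in control and 153 and 176 in knockout libraries (log2 fold change 0.61, SE 0.19, adjusted p = 0.0907), and Bak1 at 45.6 and 31.6 against 57.7 and 70.5 (0.72, SE 0.21, adjusted p = 0.0765). In unassigned cells Bax gave 0.52 (SE 0.16, adjusted p = 0.0783) and Bak1 0.48 (SE 0.15, adjusted p = 0.0800). No library of a group overlapped the other group in these cases, which was also so for 54.4% of all genes in stem-like and 57.0% in unassigned cells. Without each library in turn, stem-like changes ranged from 0.44 to 0.83 for Bax and from 0.54 to 0.97 for Bak1. In unassigned cells they ranged from 0.37 to 0.66 and from 0.35 to 0.60. The fitted change of Bax was positive in 6 of 6 classes and that of Bak1 in 5 of 6, and without knockout library 2 that of Bax was positive in 5 of 6. Cycs, the gene of the cytochrome c that Bax and Bak1 release, rose in stem-like cells from 105 and 112 to 186 and 202 CPM (0.82, SE 0.18, adjusted p = 0.0329) and in unassigned cells by 0.62 (SE 0.16, adjusted p = 0.0466).

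G2/M genes stood beside the effectors here as well. Their summed level in stem-like cells was 1468 and 763 CPM in control and 1582 and 1925 in knockout libraries, in the same order of libraries as Bax and Bak1, with Cdk1 called higher among 14. Control library 2 was lowest in all 3. The part of the cell cycle in the levels of the effectors was not tested.

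Bcl2 and Bcl2l11 came close to the threshold in single classes. In monocyte- and dendritic-like cells Bcl2 stood at 170.0 and 159.5 CPM in control and 96.5 and 67.8 in knockout libraries (-1.04, SE 0.24, adjusted p = 0.0530), on 36 and 25 knockout cells, where 0.538% of all genes were called lower. The change ranged from -1.38 to -0.85 without each library in turn. In neutrophil-like cells the change of Bcl2 was -0.01 (SE 0.18). Against unassigned cells, where it was -0.42 (SE 0.15), the difference of the changes was 0.43 (SE 0.13, adjusted p = 0.0406), the only 1 of 50 such tests past the threshold, where 1.77% of all genes tested were called, and 6.71% in neutrophil-like cells. That call was lost without knockout library 1 (0.31, adjusted p = 0.448) and without knockout library 2 (0.53, adjusted p = 0.0521). It was also lost with copied barcodes kept, with stricter limits on cells, without the deepest cells, with 1 more marker, with the unthinned gate, with no filter on low counts and by DESeq2, at differences from 0.37 to 0.59 and adjusted p from 0.0570 to 0.124.

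Bcl2l11 in lymphoid-primed-like cells fell short of the threshold with 58.3 and 72.2 CPM in control against 30.1 and 36.5 in knockout libraries (-0.96, SE 0.22, adjusted p = 0.0823). Unassigned cells gave -0.58 (SE 0.15, adjusted p = 0.0501). Without each library in turn, these changes ranged from -1.15 to -0.72 in lymphoid-primed-like and from -0.73 to -0.44 in unassigned cells. Bcl2 had a negative fitted change in all 6 classes, but it was near 0 in neutrophil-like cells and its sign there or in stem-like cells turned under 4 other settings and without control library 1 or knockout library 2. Non-overlapping groups were seen for 7 of 10 members in unassigned cells, 3 higher and 4 lower, against 57.0% of all genes, and for 6 of 9 in stem-like cells against 54.4%.

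As a description of the balance within the family, survival members made up 58.9% and 64.3% of the UMIs of the 10 members in stem-like cells of control and 46.1% and 43.4% of knockout libraries. Effectors made up 23.4% and 17.7% against 35.4% and 37.9%, and BH3-only members between 17.7% and 18.7% in all 4. Unassigned cells were alike, with survival members at 53.1% and 53.5% against 41.4% and 39.8%. In neutrophil-like cells survival members held 37.3% and 36.5% against 36.7% and 31.5%, so that their share was already low in control libraries. These shares weigh Mcl1 and Bax most, since those 2 genes hold most of the UMIs, and they were not tested.

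**Figure D4:**
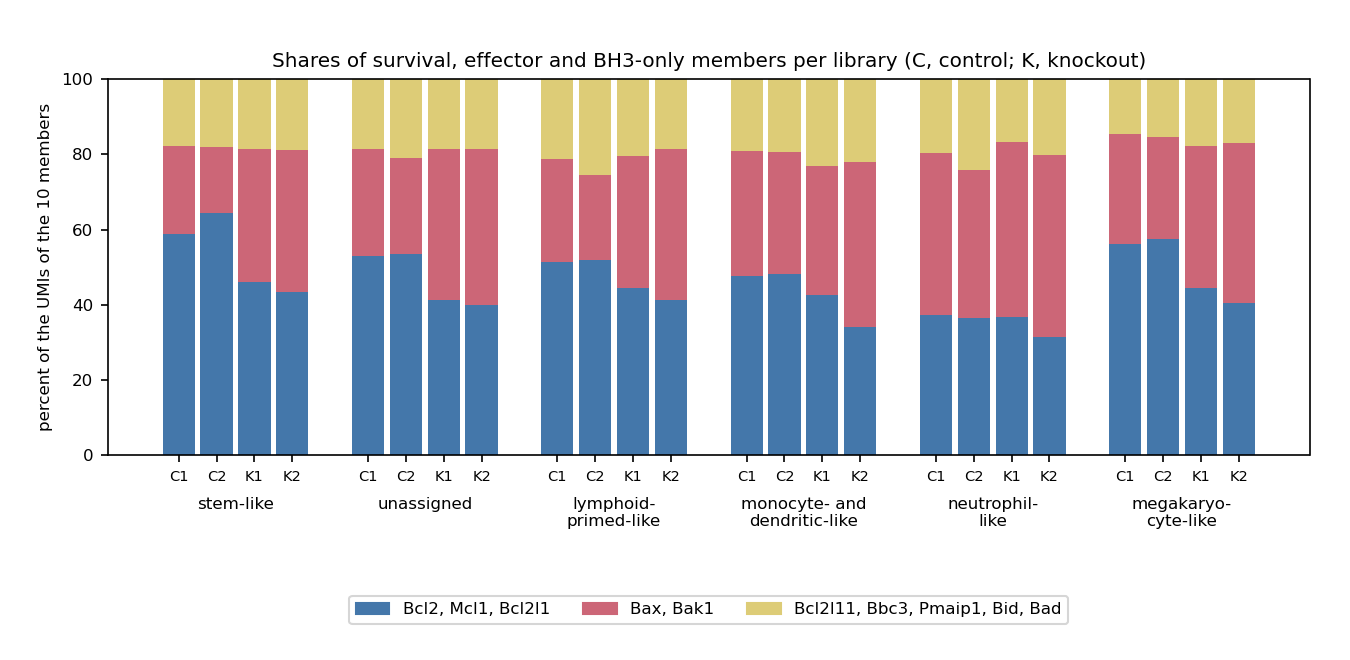
Share of the UMIs of the 10 members that came from survival members (blue), effectors (red) and BH3-only members (yellow), in percent, with 1 bar per library (C1 and C2, control; K1 and K2, knockout) in 6 classes. Survival members held 58.9% and 64.3% in stem-like control cells and 46.1% and 43.4% in stem-like knockout cells, while neutrophil-like bars lie between 31.5% and 37.3%.

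The rest of the apoptosis machinery was followed with a list of 38 further genes, of which 34 were tested over all cells. Bok, an effector related to Bax and Bak1, was the only 1 called there, with 4.54 and 6.69 CPM in control and 16.2 and 15.9 in knockout libraries (log2 fold change 1.499, SE 0.23, adjusted p = 0.0226). Of all genes, 3.44% were called over all cells, 1.37% higher and 2.07% lower. The median log2 fold change of the list was -0.00053 and that of all genes tested -0.0080. Bok was also called in stem-like cells with 1.67 (SE 0.29), in megakaryocyte-like cells with 2.43 (SE 0.57) and in unassigned cells with 1.13 (SE 0.21). Megakaryocyte-like cells held 3.30 and 0 CPM of it in control and 14.7 and 14.4 in knockout libraries (adjusted p = 0.0492, edgeR). In stem-like and unassigned cells Bok and Cycs were the called genes of the list, and 0 were lower. Of all genes, 4.02% and 9.25% were called there.

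Between classes, 10 of 31 genes of the list were higher and 6 lower in neutrophil-like cells, where 21.1% and 18.5% of all genes were. Among the higher ones were Endog at 1.10 (SE 0.12), Cycs at 0.90 (SE 0.15) and Htra2 at 0.75 (SE 0.10) on the log2 scale, and Bok was lower at -1.16 (SE 0.18). Stem-like cells had 6 higher and 8 lower of 30, against 15.2% and 17.5% of all genes, with Cycs at -0.58 (SE 0.06) and Birc5 at -0.57 (SE 0.09) lowest and the caspase inhibitor Xiap at 0.19 (SE 0.07). In erythroid-like cells, 7 were higher and 3 lower of 30, against 11.2% and 12.3% of all genes. Bcl2a1b, a further survival gene with near-identical copies among which reads may be split, was higher in monocyte- and dendritic-like cells at 2.75 (SE 0.57), and with 3.20, 1.31, 5.13 and 27.1 CPM this rested mainly on knockout library 2. B-lineage-like cells had Birc3 at 2.06 (SE 0.29), Bcl2a1b at 2.34 (SE 0.64) and the BH3-only gene Bmf, which was called on 4.92 and 2.05 CPM, all measured in the knockout libraries alone.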

How the data were processed

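RNA of sorted LSK cells was counted in 4 libraries with 10x Genomics 3′ chemistry. The authors made the UMI counts per gene and barcode with Cell Ranger 3.1 on mm10 and deposited them as filtered matrices. A barcode needed 200 genes or more and a mitochondrial share of UMIs of 10% or less, and those with 3 or more times the UMIs under the same sequence in another library were left out. Doublets were not called, and 1 alternative leaves out the deepest 5% of cells and cells in several gates. A class needed 3 markers and a score of 2 on counts thinned to 6000 UMIs, a gate set after marker levels, but no member levels, were seen.

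UMIs were summed per library and class (at least 20 cells) and tested in R 4.3.3 with edgeR 4.0.16 (filterByExpr, TMM, quasi-likelihood test, Benjamini-Hochberg over all genes at 0.05), with DESeq2 1.42.0 as an alternative. Class differences and genotype effects in a class against unassigned cells had the library as a block. CPM are UMIs scaled to a common total within the library and class. SE were derived from edgeR's test, as the absolute log2 change divided by the square root of its F value. They need not match the p-value exactly. The scripts were tested on simulated data with 200 genes changed by 1 on the log2 scale. The genotype test recovered 39% of them over all cells and 56% in stem-like cells, with 9.3% and 5.08% of calls false. For stem-like against unassigned cells the class test recovered 93% and the test of the difference between genotype effects 61%. False calls there were 7% and 10.95%. These shares and those of the genotype test were all above the 5% that the threshold names. Python 3.11.15 and matplotlib 3.10.9 served for tables and plots.

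Members are always named. Genes of the wider apoptosis list are named from those past the threshold, at most 10 a comparison. Context lists are given as counts, sums and medians, with single genes of them chosen after their values were seen. Members and lists were chosen with earlier results of these data known, and the plasma cell list and the setting without B-lineage-like, T- and NK-like, plasmacytoid dendritic-like and Jchain-rich cells were added after the data were seen. Same-strand annotation overlaps Bcl2, Bax and Bid, so reads there may be shared.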

Additional observations from a re-analysis of the deposited data

Results flagged for a closer look

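The effect of genotype on Bcl2 differed between neutrophil-like and unassigned cells by 0.43 on the log2 scale (SE 0.13, adjusted p = 0.0406, edgeR's quasi-likelihood test of the interaction). It was listed because the difference between both effects was itself tested. Bcl2 stood at 85.8 and 65.9 CPM in control and 81.4 and 75.7 in knockout neutrophil-like cells, where the groups overlapped, and at 109.9 and 83.1 against 68.6 and 72.7 in unassigned cells, where they did not. Neutrophil-like cells numbered 2070 and 148 in control and 93 and 75 in knockout libraries. The difference ranged from 0.31 to 0.53 without each library in turn, with adjusted p from 0.0347 to 0.448. It was past the threshold with DESeq2's size factors and without B-lineage-like, T- and NK-like, plasmacytoid dendritic-like and Jchain-rich cells (adjusted p = 0.0340 and 0.0384). The call ended under the 7 other settings run, copied barcodes kept, stricter limits on cells, deepest cells left out, 1 more marker, unthinned gate, no filter on low counts and DESeq2's Wald test, with adjusted p from 0.0570 to 0.124.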

How the results depend on the processing

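Of 816 recomputed values of 64 results, 8 changed sign. Over all LSK cells, 1 member was called and 0 with copied barcodes kept, and 0 to 3 without each library in turn. Within classes, 2 tests were called, against 4 with copied barcodes kept, 4 without B-lineage-like, T- and NK-like, plasmacytoid dendritic-like and Jchain-rich cells, 12 with no filter on low counts, 1 with 1 more marker needed, 7 with the gate on unthinned counts, and 1 to 16 without each library in turn. Class differences numbered 37, from 26 to 38 under the other settings and from 25 to 34 without each library in turn, some of which tested fewer classes. The genotype effect against unassigned cells was called 1 time, against 0 with copied barcodes kept, 0 with 500 genes and 5% mitochondrial UMIs as limits, 0 without the deepest cells and cells in 2 gates, 0 by DESeq2's Wald test, 0 with 1 more marker, 2 without the lymphoid and Jchain-rich cells, 2 with no filter, 3 with DESeq2's size factors and 6 with the unthinned gate, and 0 to 5 without each library in turn.

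The change of Bcl2 in neutrophil-like cells, -0.01, turned to 0.081 without the deepest cells, 0.0043 with DESeq2's size factors and 0.0043 by DESeq2, and ranged from -0.11 to 0.12 without each library. In stem-like cells, -0.20 turned to 0.14 with 1 more marker and ranged from -0.38 to 0.029 without each library. Bbc3 over all cells ranged from -0.63 to 0.020 without each library. The cause of these changes was not tested.

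No label says that the replicate numbers pair the libraries. Deviations of same-numbered libraries correlated at r = -0.16 over 13770 genes, a single value that cannot decide whether they were handled in pairs. With the replicate number as a block, 5 tests within classes were called in place of 2, and 1 over all cells as before. With 2 libraries a genotype, an exact permutation test of a single value cannot go below p = 0.333.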
